A study of Mus musculus with 7 samples.

Results

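The stretch of mouse chromosome 14 (build mm9) that holds the genes Gpc5, Gpc6 and Sox21 was examined for binding of 3 transcription factors, FRA2, JUND and SOX2, by chromatin immunoprecipitation and sequencing (ChIP-seq). Its members are all binding events listed at positions 115000000 to 120000000, which came to 101 of 137595 events in the series, with 46 of 64579 for FRA2, 32 of 46583 for JUND and 23 of 26433 for SOX2. An event is a single base position with the number of immunoprecipitation (IP) reads assigned to it. The stretch was chosen by its FRA2 and JUND reads, which were higher in one of the cell lines, so that difference is described here with no test.

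The cells were immortalised lines from the striatum of mouse embryos at day 14, of 129SvEv/CD1 strain background. The line STHdhQ7, genotype HdhQ7/Q7, has only huntingtin whose glutamine tract is short. The line STHdhQ111, genotype HdhQ111/Q111, has only huntingtin whose tract is long, as in Huntington's disease. They are called Q7 and Q111 here. Both lines were used at fewer than 15 passages, grown at 33 °C and shifted to 39 °C for 2 days to halt division. FRA2 and JUND were mapped in both lines and SOX2 in Q7, and the labels list an IgG control for each line. Each group is 1 library pooled from 2 replicates and each genotype is 1 line, so genotype and line cannot be told apart and no spread between replicates exists. Intervals given below are 95% counting intervals only, and PCR reads are not independent molecules. Whether more cells were bound or each cell was bound more often cannot be told apart in such bulk data, and the tables hold no expression of striatal marker genes to check the cell type. Over the whole tables the events held 3340554 (FRA2, Q7), 3498922 (FRA2, Q111), 1660158 (JUND, Q7), 1609483 (JUND, Q111) and 1193914 (SOX2, Q7) reads.

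FRA2, of the FOS family, and JUND, of the JUN family, pair with each other in the AP-1 dimer, which binds short palindromic sites, mostly in enhancers. SOX2 is a high-mobility-group factor that maintains neural progenitors. SOX21 is a related factor of the SOXB2 subgroup that acts largely as a repressor and counteracts SOX2-type factors in the developing nervous system. GPC5 and GPC6 are glypicans, heparan sulfate proteoglycans held in the cell membrane by a lipid anchor, which bind secreted growth factors. In RefSeq the protein-coding genes of the stretch follow each other as Gpc5, Gpc6, Dct, Tgds, Gpr180, Sox21, Gm9376, Abcc4, Cldn10, Dzip1, Dnajc3, Uggt2 and Hs6st3. That order is from build GRCm38.p6, and no mm9 annotation was used here, so the gene in which an event lies is not given. The one mm9 gene position used is that of Sox21, near 118.63 Mb, as stated in the definition of the stretch.

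Of the 3 genes that name the stretch, 2 (Gpc5 and Sox21) had a promoter in the RefSeq table of 250 bases before to 50 after a gene's start. That of Sox21 is shown because SOX2 events lay next to the stated Sox21 position (build GRCm38.p6, minus strand, chr14:118236981-118237280, coordinates not comparable with the mm9 positions below).
Sox21 promoter: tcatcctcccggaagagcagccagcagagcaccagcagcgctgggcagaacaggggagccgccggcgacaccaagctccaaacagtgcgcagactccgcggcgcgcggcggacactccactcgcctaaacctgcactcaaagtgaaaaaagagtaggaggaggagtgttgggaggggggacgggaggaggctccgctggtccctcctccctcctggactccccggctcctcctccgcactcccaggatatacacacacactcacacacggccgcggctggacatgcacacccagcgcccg
Capitals would mark the AP-1 motif TGANTCA or the SOX motifs CATTGT and CTTTGT on either strand. None of these letters occurred in this window or in that of Gpc5, and none of the 3 motifs contains another. Among 32851 promoter windows of this length, 7.81% held TGANTCA, 12.6% CATTGT and 18.7% CTTTGT. The sequences under the events themselves were not read, since that needs an mm9 genome.

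The events filled only part of the stretch. None of the 3 tables listed an event in its first 2.31 Mb, and the nearest earlier event on the chromosome lay 5.63 Mb before the first one, which was JUND at position 117311193. The last event, JUND at position 119866305, was followed by a gap of 0.637 Mb. All 101 events therefore fell within 2.56 Mb. The name of the stretch begins with Gpc5, but no binding was listed over its first 4 bins of 0.5 Mb.

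FRA2 was higher in Q7 over the stretch by a median log2 fold (Q111 over Q7) of -1.45, with quartiles of -2.64 and -0.19, against a median of 0.00 over all FRA2 events and 0.37 over chromosome 14 below the stretch. Folds were scaled to the events marked present in both lines and computed with 0.5 reads added. At least 2-fold higher in Q7 were 25 of 46 events (54.3%), where the whole table had 22.6%. At least 2-fold higher in Q111 were 6 events (13.0%), against 24.2% of the whole table. The remaining 15 differed by less than 2-fold. The shares show the shift for which the stretch was picked and are read no further. JUND gave a similar picture, with a median of -1.36 (quartiles -2.44 and 0.38) against -0.13 over all JUND events. At least 2-fold higher in Q7 were 19 of 32 JUND events (59.4%), against 25.0% of the table, and at least 2-fold higher in Q111 were 4 (12.5%), against 18.7%. Among the events with at least 50 reads over both lines the medians were nearer 0, at -0.70 for 22 FRA2 events and -0.16 for 11 JUND events, where all FRA2 and JUND events with that many reads had medians of 0.01 and -0.07. Of these, 10 FRA2 events (45.5%, against 17.7% of all such events) and 4 JUND events (36.4%, against 18.4%) were at least 2-fold higher in Q7.

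The authors' own marks of presence come from the same libraries by which the stretch was chosen. They describe the same shift and are no separate evidence for it. Of the FRA2 events, 26 were marked present in Q7 alone (56.5%), 13 in both lines (28.3%) and 7 in Q111 alone (15.2%). Over all FRA2 events these shares were 26.7%, 47.6% and 25.7%. Of the JUND events, 17 were marked in Q7 alone (53.1%), 9 in both lines (28.1%) and 6 in Q111 alone (18.75%). Over all JUND events these shares were 38.4%, 37.1% and 24.4%. Reads at single events ran from 3 to 245 for FRA2 in Q7, with a median of 34, and from 2 to 195 in Q111, with a median of 14. JUND reads ran from 1 to 101.1 in Q7 (median 27.5) and from 1 to 115.3 in Q111 (median 17). The ranges of the lines overlapped for both proteins.

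**Figure D1:**
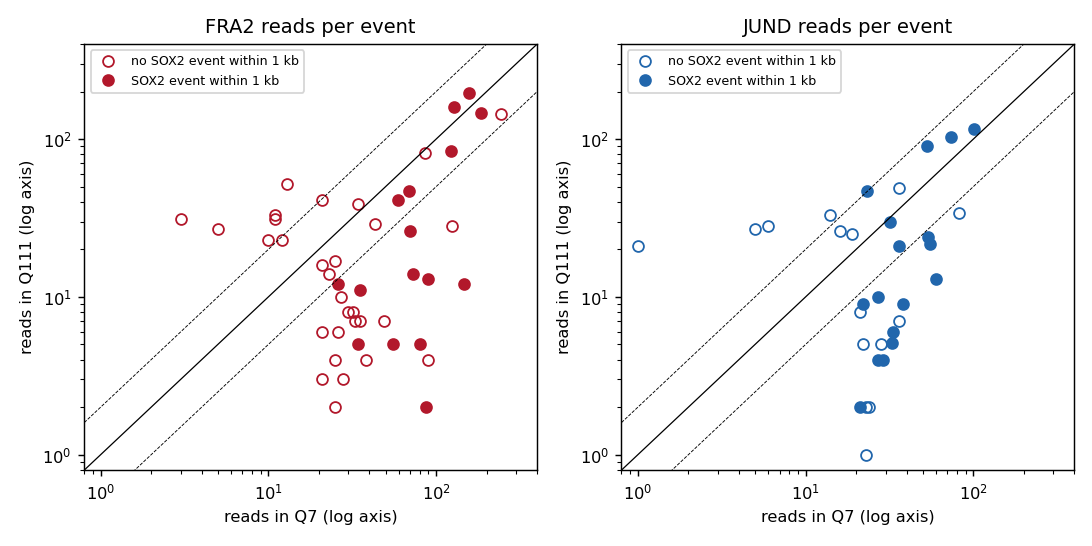
IP reads of each event in Q7 (x) and Q111 (y) for FRA2 (46 events, left) and JUND (32 events, right), both axes logarithmic; the solid line marks equal unscaled reads, the broken lines 2-fold differences, and filled points have a SOX2 event within 1 kb. Most points lie below the solid line, and all points with fewer than 10 reads in Q7 are open.

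The shift was not even along the stretch. In the bins from 117 to 118.5 Mb the median FRA2 log2 fold was -1.98 over 7 events, -2.70 over 13 and -2.39 over 5. From 118.5 to 119 Mb it was -0.58 over 8 events, and from 119 to 119.5 Mb it was 0.57 over 12. The 1 FRA2 event after 119.5 Mb had a log2 fold of 1.91. The first bins were thus higher in Q7 and the last ones were not. JUND ran in the same order, with -2.22 over 6 events, -2.44 over 9, -1.46 over 3, -0.55 over 6, 0.40 over 7 and 2.06 at the last event.

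Split at the Sox21 position, a division made after these values were seen, the FRA2 events before it had a median log2 fold of -2.47. Of these 26 events, 22 were at least 2-fold higher in Q7 and 0 at least 2-fold higher in Q111. Their summed reads were 1432 in Q7 and 374 in Q111, 3.95-fold higher in Q7 after scaling. The 20 FRA2 events after it had a median of -0.05, with 3 at least 2-fold higher in Q7 and 6 in Q111, and sums of 1148.9 and 1112 reads. For JUND, 13 of 20 events before the position were at least 2-fold higher in Q7 and 1 in Q111, with a median of -2.16 and sums of 577 and 309 reads, 1.96-fold higher in Q7. After it 6 of 12 were at least 2-fold higher in Q7 (50%, against 25.0% of the table) and 3 in Q111, with a median of -0.55 and sums of 497 and 478. The 2 sides of Sox21 thus stood further apart for FRA2 than for JUND, of which many events after Sox21 were also higher in Q7; the difference between the sides was not tested. With at least 50 reads, 13 FRA2 events before Sox21 had a median of -2.77 and 9 after it -0.38, while 5 JUND events before it had a median of -0.16 and 6 after it -0.55. Among these better covered events the order of the sides was opposite for the 2 proteins, on few JUND events. The read minimum kept different sites for each protein, as JUND had fewer reads. It left out JUND at 117918958 (33 and 6 reads, log2 fold -2.44) and 117926483 (29 and 4 reads, -2.78), for example. The FRA2 events beside both were kept. The opposite order is therefore not read as a difference between the proteins.

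**Figure D2:**
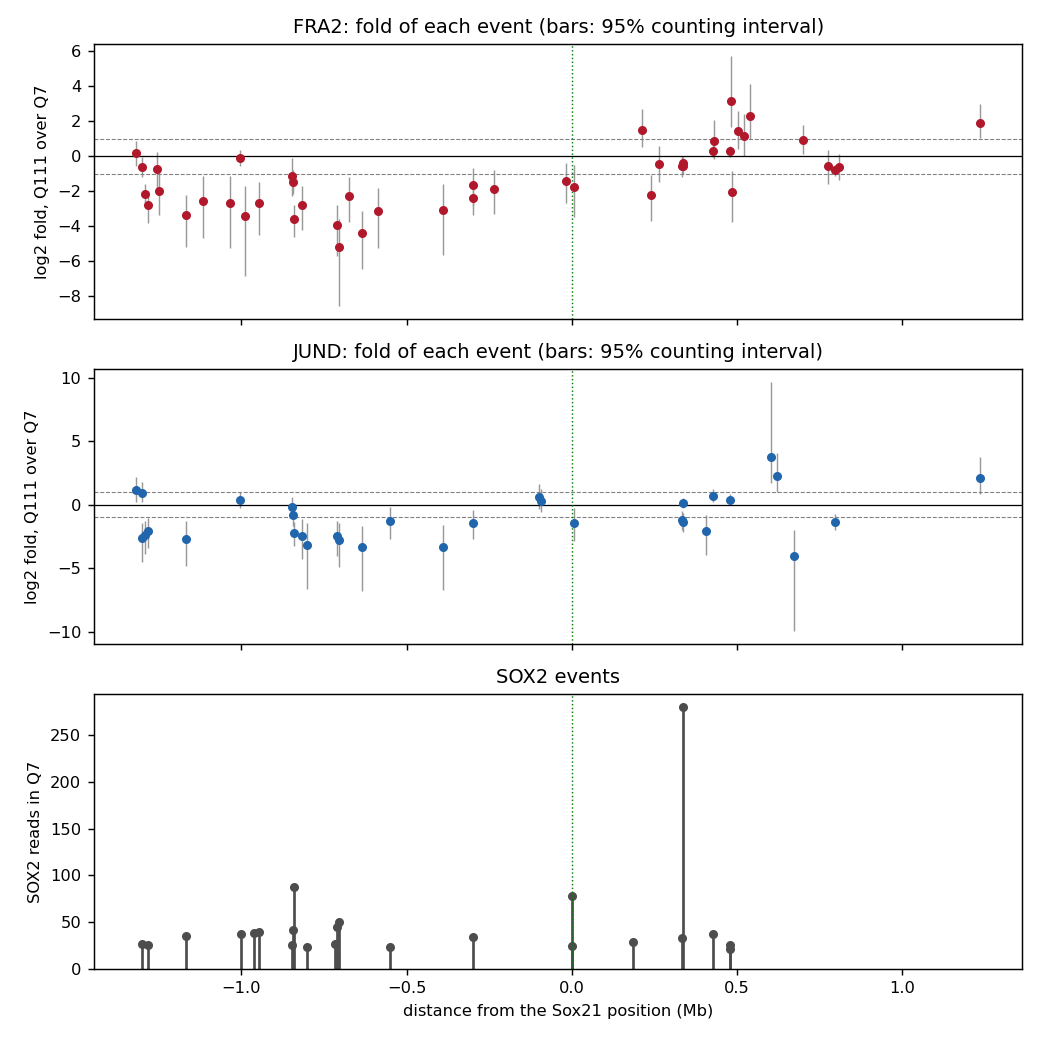
Log2 fold (Q111 over Q7) of each FRA2 event (top) and JUND event (middle) with its 95% counting interval, and SOX2 reads in Q7 (bottom), against the distance from the stated Sox21 position in Mb (dotted line); broken lines mark 2-fold. FRA2 events left of the dotted line lie between -5.18 and 0.15, and those to its right between -2.21 and 3.12.

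The FRA2 sites with the most extreme folds towards Q7 lay before Sox21. At position 117926491 there were 87 FRA2 reads in Q7 against 2 in Q111, a 36.1-fold ratio (12.1 to 377). Position 117995092 held 89 and 4 reads, 20.5-fold higher in Q7 (8.66 to 86.2). Position 117918993 held 80 and 5 reads, a 15.1-fold difference (6.79 to 52.3). These strong Q7 sites were close to empty in Q111. Every listed FRA2 and JUND event was marked present in Q7, in Q111 or in both, and these were marked in Q7 alone. Such a site is listed only through its Q7 reads, which favours a large fold towards Q7. The same holds in reverse for sites marked in Q111 alone. The event with the most FRA2 reads among the 8 farthest towards Q7, at position 117790151, had 146 reads in Q7 against 12 in Q111, a 12.1-fold difference (6.98 to 24.9). At position 117462292 the 55 reads in Q7 stood against 5, a 10.4-fold difference (4.58 to 36.4). The other 3 of these sites, at positions 117347629, 118042476 and 117813120, were 6.92-fold, 8.83-fold and 6.81-fold higher in Q7. Of the 8, only that at 118042476 had no JUND event within 100 bp.

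At all 7 JUND partners of these sites JUND was at least 2-fold higher in Q7 as well, with fewer reads behind each value. At position 117995066 JUND had 24 reads in Q7 against 2 in Q111, a 10.3-fold ratio (3.13 to 110). At position 117926483 there were 29 and 4 reads, 6.89-fold higher in Q7 (2.68 to 29.8). At position 117790188 there were 60 and 13 reads, a 4.71-fold difference (2.63 to 9.64). The intervals of these 3 JUND ratios overlap those of the FRA2 events beside them. Position 118241198 held 23 and 2 JUND reads, a 9.88-fold ratio (2.99 to 106), and FRA2 beside it 28 and 3. At position 117462286 JUND had 27 reads in Q7 against 4 in Q111, a 6.42-fold difference (2.47 to 27.9). At 3 further JUND sites of this kind no FRA2 event lay within 100 bp. At position 117827021 there were 21 and 2 reads (9.04-fold, 2.70 to 97.1). At position 117328257 there were 32.7 and 5.1 (6.23-fold, 2.69 to 22.8). At position 119303699, after Sox21, there were 23 and 1 (16.5-fold, 3.93 to 996).

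The strongest FRA2 and JUND sites of the stretch lay mostly after Sox21 and mostly differed by less than 2-fold. FRA2 at position 119427094 had 245 reads in Q7 against 145 in Q111, 1.74-fold higher in Q7 (1.41 to 2.16), and JUND beside it at 119427122 had 82 and 34, 2.51-fold higher (1.68 to 3.90). FRA2 at position 119109108 had 156 and 195 reads, and at 119057755 it had 127 and 159, with intervals that include a fold of 1. JUND at position 119109103 had 74 and 103 reads and at 119057771 it had 53 and 90, of which the latter was 1.61-fold higher in Q111 (1.14 to 2.31). At both of these sites both proteins had more reads in Q111. At 118965597 FRA2 had 183.9 and 145.4 reads, and at 118965747 it had 123.1 and 84.6, both under 2-fold. JUND at 118965603 had 101.1 and 115.3 reads, a 1.08-fold difference with an interval that includes 1, and at 118965755 it had 54.9 and 21.7, 2.62-fold higher in Q7 (1.58 to 4.53). One strong JUND site lay before Sox21, at position 117626433, with 36 reads in Q7 against 49 in Q111, and FRA2 there had 86 and 81. That site differed by less than 2-fold for both proteins. The FRA2 events on either side of it, at 117594180 and 117639453, were 6.34-fold (2.16 to 37.8) and 10.5-fold (3.22 to 112) higher in Q7. They held only 21 against 3 and 25 against 2 reads. Both were marked present in Q7 alone, so their listing favours such folds and the contrast is not read further.

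Sites higher in Q111 were few and carried few reads. FRA2 at position 119112739 had 3 reads in Q7 against 31 in Q111, an 8.72-fold ratio (3.12 to 51.2). At position 119170729 it had 5 and 27 reads, 4.84-fold higher in Q111 (1.99 to 17.4). At position 119866292 it had 13 and 52 reads, a 3.77-fold difference (2.08 to 7.76). All 3 lay after Sox21, and the JUND event beside the last one, at 119866305, was 4.17-fold higher in Q111 (1.80 to 13.1), with 6 and 28 reads. The JUND event at position 119232703 had 1 read in Q7 against 21 in Q111, a 13.6-fold ratio (3.21 to 826). At position 119250917 JUND had 5 and 27 reads, 4.76-fold higher in Q111 (1.95 to 17.1). Neither of these JUND sites had a FRA2 event within 100 bp, and the JUND site at 119303699, higher in Q7, lay beyond them, so the direction changed between neighbouring sites.

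FRA2 and JUND were then compared with each other. The stretch was not chosen by the difference between them, but it was chosen by the same reads. The comparison is therefore not free of that choice. A pair is a FRA2 and a JUND event within 100 bp, each the nearest of the other. There were 23 pairs in the stretch at a median distance of 13 bp, and 23 FRA2 and 9 JUND events had no partner. Both proteins were at least 2-fold higher in Q7 at 11 pairs and at least 2-fold higher in Q111 at 1, and no pair had opposite differences of that size. Across the 23 pairs Pearson's r between the log2 folds was 0.90 and Spearman's rho 0.92, a description of sites that share libraries and input chromatin. Neither these counts nor the correlations were computed over all pairs, so whether they are unusual cannot be told. The choice of the stretch by the reads of both proteins favours pairs higher in Q7 for both. The share of reads in Q111 differed between FRA2 and JUND at 0 of the 23 pairs (two-sided Fisher's exact test, Benjamini-Hochberg adjusted over all 35176 pairs, threshold 0.05), where 0.262% of all pairs passed. Before adjustment 4 of the 23 pairs (17.4%) and 9.45% of all pairs had p below 0.05, and the smallest adjusted p was 0.0997. That a pair did not pass does not show that the proteins changed alike, since many pairs held few reads in Q111.

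The pair with the smallest p was FRA2 at 117327810, with 69 reads in Q7 against 47 in Q111, and JUND at 117327818, with 23.3 and 46.9 (exact test, unadjusted p = 0.000499). There FRA2 leaned to Q7 and JUND to Q111, both by less than 2-fold. A second JUND event, at 117328257 and 447 bp from this FRA2 event, had 32.7 and 5.1 reads and was higher in Q7. The JUND values at both positions are fractional. How far the division of reads between them set the difference of this pair was not tested. At FRA2 position 117926491 the log2 fold was -5.18 for FRA2 and -2.78 for JUND (exact test, adjusted p = 0.512). At 18 of the 23 pairs the JUND log2 fold was more towards Q111 than that of FRA2, a share that was not computed over all pairs. The widest gap, at FRA2 position 117926491, rested on 2 FRA2 and 4 JUND reads in Q111. The median difference (JUND minus FRA2) over the 23 was 0.50, whereas over all 35176 pairs it was -0.11. In summed reads, JUND came to 0.416 of FRA2 in Q7 and 0.53 in Q111 over the stretch, against 0.497 and 0.460 over the whole tables. The order of the lines was thus opposite in the stretch and in the tables. That comparison of sums was not tested.

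**Figure D3:**
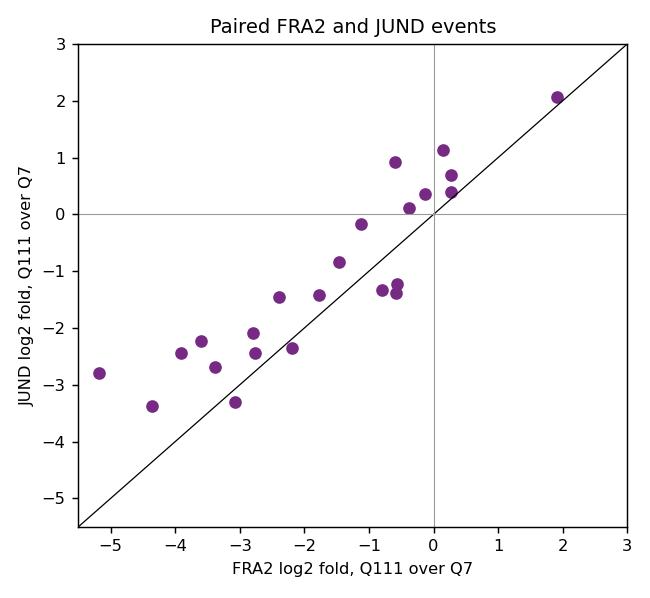
Log2 fold (Q111 over Q7) of FRA2 (x) and JUND (y) at the 23 pairs of the stretch; the diagonal marks equal folds. The points run from -5.18 to 1.91 on the FRA2 axis and lie above the diagonal at 18 pairs.

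SOX2 was mapped in Q7 alone, so no difference between the lines can be given for it. Its 23 events held 20.9 to 280 reads with a median of 34, against a median of 33 over all SOX2 events. Before the Sox21 position lay 17 of them and after it 6. The strongest, at position 118965642, had 280 reads and ranked 91 in the whole SOX2 table. FRA2 lay 45 bp and JUND 39 bp from it, at the positions 118965597 and 118965603 described above, where the lines differed by less than 2-fold. Slightly further off, FRA2 at 118965747 (105 bp) also differed by less than 2-fold. JUND at 118965755 (113 bp) was 2.62-fold higher in Q7 (1.58 to 4.53). The second SOX2 event, at position 117790229, had 88 reads and lay 78 bp from the FRA2 event that was 12.1-fold higher in Q7. The third, at position 118629591, had 78.1 reads and no FRA2 or JUND event within 1 kb. The strong SOX2 sites thus stood beside AP-1 sites of both kinds or of none.

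The next 3 SOX2 sites all lay before Sox21 and beside AP-1 events. Position 117926405 held 50 SOX2 reads, 86 bp from the FRA2 event with the 36.1-fold ratio. Position 117918930 held 45 reads, 63 bp from the FRA2 event with the 15.1-fold difference. At position 117785264, with 41 reads, the FRA2 event at 91 bp was 2.75-fold higher in Q7 (1.75 to 4.54) and the JUND event at 67 bp 1.78-fold (1.02 to 3.25). All 3 neighbourhoods had more AP-1 reads in Q7.

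Around the stated Sox21 position itself, which is given to the nearest 0.01 Mb, SOX2 had events at 118629591 and 118629959, the latter with 24.9 reads. The nearest AP-1 events were FRA2 at 118636403, with 21 reads in Q7 against 6 in Q111, and JUND at 118636334, with 21 and 8. The FRA2 event was 3.42-fold (1.41 to 10.9) and the JUND event 2.66-fold (1.17 to 7.20) higher in Q7. In Q111 the control reads at these 2 events, 11.4 and 10.8, exceeded the IP reads, and neither was marked present in Q111. A further FRA2 event at 118611967 had 27 reads in Q7 against 10 in Q111. The third nearest FRA2 event, at 118842345 and 212 kb away, had 11 and 33 reads and was 2.82-fold (1.43 to 6.37) higher in Q111. The third nearest SOX2 event, at 118815592, lay 186 kb away and had 29 reads. The next JUND events lay 93.8 and 98.0 kb away, at positions 118536239 (19 and 25 reads) and 118532043 (16 and 26), and did not reach 2-fold. No AP-1 event within 20 kb of the position thus had more than 27 reads in a line.

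Of the 23 SOX2 events, 14 had an AP-1 neighbour (FRA2 or JUND) at 100 bp or less (60.9%, Wilson interval 40.8 to 77.8%), and the share over all SOX2 events, 69.9%, falls within that interval. JUND was within 100 bp of 13 (56.5%), FRA2 of 12 (52.2%) and both of 11 (47.8%). Over all SOX2 events these shares were 61.9%, 56.4% and 48.5%.

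The AP-1 events were then divided by their distance from SOX2. FRA2 had 16 events with SOX2 no more than 1 kb away, of which 10 were at least 2-fold higher in Q7 and 0 in Q111, with a median log2 fold of -1.57. Of all FRA2 events that near SOX2, 33.5% were at least 2-fold higher in Q7 and 5.28% in Q111. Of the 30 further away, 15 were higher in Q7 and 6 in Q111, with a median of -1.12. Of all FRA2 events that far from SOX2, 16.5% were at least 2-fold higher in Q7 and 34.8% in Q111. The medians over all FRA2 events were -0.50 near SOX2 and 0.42 far from it. JUND had 17 events near SOX2, of which 11 were at least 2-fold higher in Q7 and 0 in Q111, with a median of -1.39. Of all JUND events near SOX2 the shares were 33.9% and 5.16%. Of its 15 events further away, 8 were higher in Q7 and 4 in Q111, with a median of -1.33. Of all JUND events that far from SOX2 the shares were 16.0% and 32.4%. The JUND medians near and far from SOX2 were thus close in the stretch, whereas over all JUND events they were -0.50 and 0.34. No AP-1 event at least 2-fold higher in Q111 thus had SOX2 within 1 kb, the closest being the FRA2 event at 119112739, 3251 bp from one. Such sites were also a small share of all events near SOX2, and 16 and 17 events are too few to tell a share of 0 from it. As SOX2 was mapped in Q7, sites bound by it in Q111 alone are not in the table.

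Control reads were compared because a difference in coverage of the DNA itself would appear in them. Over the events of the stretch the FRA2 table held 135.6 control reads in Q7 and 170.2 in Q111, a ratio of 1.26, against 1.33 over the whole table. The JUND table held 101.8 and 149, a ratio of 1.46 against 1.66. Relative to the whole tables the log2 ratio was -0.08 for FRA2 (interval on rounded reads -0.42 to 0.25) and -0.19 for JUND (-0.56 to 0.19). These intervals treat scaled control values as counts, so they are only approximate. None was made for the parts before and after Sox21. The log2 ratio of summed IP reads (Q111 over Q7, scaled as the folds were) was -0.84 for FRA2 and -0.52 for JUND, against 0.02 and -0.12 over the whole tables. No event had more than 16.2 control reads. Before the Sox21 position the control log2 ratio relative to the table was -0.28 for FRA2 and -0.59 for JUND, and after it 0.08 and 0.22. From 117.5 to 118 Mb control reads were 33.6 in Q7 and 21.6 in Q111 at FRA2 events, while IP reads were 773 and 170. From 118 to 118.5 Mb they were 16.8 and 29, while IP reads were 204 and 40. Control reads thus leaned to Q7 in one of these bins and to Q111 in the other, and their part in the IP difference was not tested. The tables do not name the control library or say whether both tables share it. At pairs their control values were close, as with 4.8 in Q7 and 9.3 in Q111 at FRA2 event 119057755. JUND event 119057771 beside it had 4.6 and 9.7. The control ratios of FRA2 and JUND are therefore not to be read as separate measurements.

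**Figure D4:**
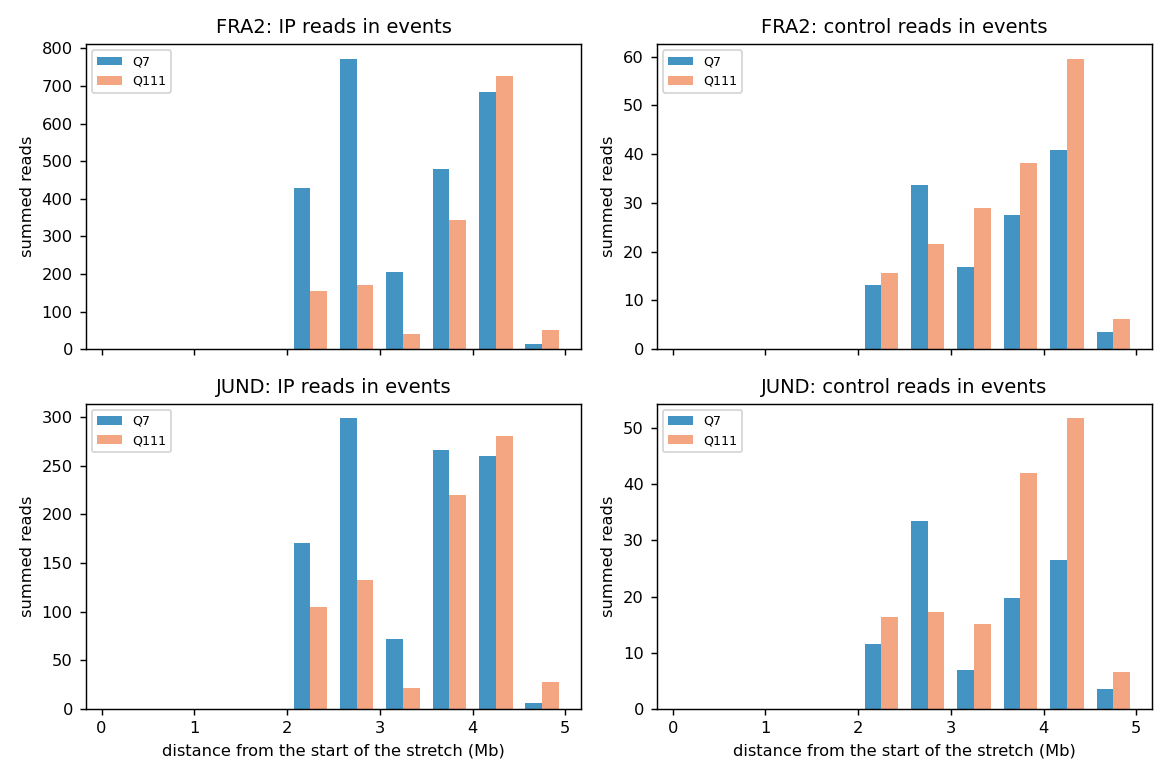
Summed IP reads (left) and control reads (right) of the events in Q7 and Q111 in 10 bins of 0.5 Mb, for FRA2 (top) and JUND (bottom), against the distance from the start of the stretch; all axes start at 0 and the vertical scales differ between panels. FRA2 IP reads are 773 in Q7 and 170 in Q111 in the bin from 117.5 to 118 Mb, and 683.9 and 727 from 119 to 119.5 Mb.

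At the borders, the first members inside were FRA2 at 117311216 (34 reads in Q7, 39 in Q111), JUND at 117311193 (14 and 33) and SOX2 at 117328255 (27 reads). The last events before the stretch were FRA2 at 111685401 (27 and 51), JUND at 111685428 (7 and 27) and SOX2 at 110872096 (29). The last members inside were the FRA2 and JUND events at 119866292 and 119866305 and the SOX2 event at 119109488 (25.1). The first events after the end were FRA2 at 120526912 (48 and 134), JUND at 120503510 (3 and 31) and SOX2 at 120676510 (24). Events on both outer sides had more FRA2 and JUND reads in Q111. In the flank from 120 to 122 Mb, 6 of 78 FRA2 events were at least 2-fold higher in Q7 and 21 in Q111, with a median log2 fold of 0.04. The 47 JUND events there had a median of -0.05, with 8 and 9 such events. In the 2 Mb before the stretch there was no event of any table.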

How the data were processed

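The labels list 7 ChIP-seq samples, 1 pooled library per group, grouped here by title. Per the submitters' processing notes the authors used Bowtie 0.12.7 and build mm9; the deposited files name the GPS event caller, with its version and settings not stated there. The IP columns hold expected counts per event, as deposited, unscaled and between 78.0% and 89.6% whole by library; they were rounded for exact tests and intervals. Values in the Control columns are a signal that the authors made by scaling control reads, judged from headers and values. The deposited q-value is given as −log10 and served as a filter in an alternative. The present mark is the authors' own. A further 22 value columns were left unused.

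Log2 folds used a pseudocount of 0.5 reads and were scaled by the median over events present in both lines of the whole table (0.05 for FRA2, 0.07 for JUND). Fold intervals (95%, without pseudocount) come from Clopper-Pearson limits of the share of reads. Pairs were tested by Fisher's exact test on unscaled reads, adjusted over all pairs. The code was tested on simulated reads. Python 3.11.15 and SciPy 1.17.1 were used. All listed events were kept; alternatives changed scaling, read minimum, pseudocount, control subtraction, merging, borders, q-value, fold and distance limits. Tests compare pooled libraries, not genotypes.

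The members, the lists and the alternatives were chosen with earlier results of these data known. Named events are, per AP-1 table, the 5 with the most reads, the 8 at least 2-fold higher in Q7 and the 3 higher in Q111 with intervals farthest from 1, plus the 6 SOX2 events with the most reads, the 3 events of each table nearest Sox21 and those at the borders; further events are named where they stand beside one of these. Planned counts of events per gene were not made, because no mm9 annotation was used here.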

Additional observations from a re-analysis of the deposited data

How the results depend on the processing

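The count of events at least 2-fold higher in Q7 changed little under the scalings, pseudocount, control subtraction, merging and border alternatives. It ran from 24 to 27 for FRA2 and from 18 to 20 for JUND. Fold limits of 1.5 and 4 define other counts, which were 30 and 18 for FRA2 and 20 and 13 for JUND. With at least 50 reads the 2-fold count was 10 of 22 FRA2 and 4 of 11 JUND events. Fewer events were left, and the share fell as well, from 54.3% to 45.5% for FRA2 and from 59.4% to 36.4% for JUND. With q-values below 0.0001 it was 22 of 38 FRA2 and 12 of 21 JUND events. The median log2 fold stayed below 0 in every alternative, from -1.81 to -0.70 for FRA2 and from -2.02 to -0.16 for JUND, but the JUND median with at least 50 reads (-0.16 over 11 events) was close to that of all JUND events with as many reads (-0.07). Scaling by control reads moved the median of all events to -0.36 for FRA2 and -0.79 for JUND, and scaling by total reads moved that of JUND from -0.13 to -0.02. Unscaled, the control log2 ratio was 0.33 for FRA2 and 0.55 for JUND. SOX2 events near AP-1 were 43.5% within 50 bp and 73.9% within 1000 bp, where 86.4% of all SOX2 events had an AP-1 event within 1000 bp. No pair of the stretch passed the test in any of its 4 alternatives, where the smallest adjusted p of Fisher's exact test ran from 0.0645 to 0.114. Of 160 values of 32 named events under alternatives, 149 stayed within the counting interval, 11 moved beyond it (9 of them under scaling by control reads) and 0 of those at least 2-fold reversed. Some named events under 2-fold changed sign under scaling by control reads, while others kept theirs. The FRA2 log2 fold went from 0.27 to -0.09 at 119109108 and from 0.28 to -0.09 at 119057755. That of JUND went from 0.40 to -0.26 at 119109103, from 0.12 to -0.55 at 118965603 and from 0.37 to -0.30 at 117626433. Merging also took JUND at 118965603 to -0.26. No paired analysis was possible because each group is 1 pooled library, and for the same reason no replicate could be left out. Depth limits single folds: the interval was 2.68 to 29.8 at JUND event 117926483, with 4 reads in Q111, and 3.93 to 996 at JUND event 119303699, with 1.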
